A study of Mus musculus with 18 samples.

Results

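The collagen genes of mouse liver were followed through a chemical carcinogenesis course in animals with and without the transcription factor NRF2. Rows of the deposited count table were taken as collagen genes where the gene name had the form of a collagen chain (Col, a type number, a and a chain number) and the counts summed over the 18 libraries reached 50. That rule kept 38 of 44 rows with such a name, in a table of 35275 rows. The other 6 rows (Col2a1, Col6a4, Col9a1, Col10a1, Col19a1 and Col26a1) had summed counts of 13, 16, 8, 16, 7 and 9. The members nearest above the limit were Col17a1 with 68 counts, Col11a1 with 129 and Col9a2 with 133. Of the 38 members, 10 encode fibrillar chains, 6 basement membrane chains, 5 beaded filament chains, 7 chains that attach to the surface of fibrils, 2 short-chain network collagens, 2 multiplexins and 4 transmembrane collagens. Col7a1, of the anchoring fibrils, and Col28a1 make up the remaining 2.

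Collagens are secreted matrix proteins whose chains wind around each other into a rigid helix. Fibrillar collagens assemble into the fibres that give scar tissue its tensile strength, whereas basement membrane collagens form sheets under epithelium and around vessels. In liver, hepatic stellate cells and portal fibroblasts are the best known makers of fibrillar collagen, and vessel walls, bile ducts and the capsule contain more of it than the lobule does. NRF2, encoded by Nfe2l2, activates genes of antioxidant and detoxifying enzymes through the antioxidant response element in their promoters.

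RNA from mice of a mixed B6;129P2 background, wild type (WT) or NRF2 knockout (KO), was sequenced after diethylnitrosamine (DEN), a liver carcinogen that hepatocytes activate. Samples were taken at 2 days (2D), at 4 weeks (4W) and at 36 weeks (36W), with 3 libraries of each genotype at each time. Every group had received DEN and no untreated group was analysed here, so that time after DEN and the age of the animal cannot be told apart. The labelled source is liver tumor at 2D and liver tissue at 4W and 36W, and the titles carry the letter B at 2D and A at the other times. Time and that letter also cannot be told apart. The tumor label of the earliest time was taken as written, and whether it is accurate could not be settled from the files. No label ties a library to an animal of its own, and p-values refer to the spread between samples, which may be technical.

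Libraries held 15.3 to 24.2 M counts in genes, and a floor of 3 counts corresponded to 0.132 to 0.207 CPM (counts scaled to a common library size), counting error only. Levels below are CPM with TMM scaling over the 18 libraries, listed in the order of replicates 1, 2 and 3. Nfe2l2, the targeted gene, measured 73.1, 70.2 and 76.1 CPM in WT and 43.2, 66.3 and 67.8 CPM in KO at 2D. At 4W it measured 109, 109 and 90.003 CPM in WT and 54.01, 55.1 and 56.2 CPM in KO, and at 36W 110.3, 127 and 105 CPM in WT and 42.9, 37.7 and 42.97 CPM in KO. KO lay below WT at every time without overlap, with log2 differences of -0.32, -0.90 and -1.44 and adjusted p-values of 0.396, 0.00211 and 0.0328 in edgeR's quasi-likelihood test. Transcript of the gene thus remained in every KO library. Hepatocyte markers were present in all libraries: 7 of 7 listed in the table had at least 10 counts in each group, with summed levels from 83645 to 247342 CPM. Pancreatic acinar markers summed to 3.84 to 69.3 CPM and adipocyte markers to 13.6 to 58.8 CPM. Most of the acinar sum was Cela1 alone, at 3.08 to 68.6 CPM. Of the 10 acinar markers, 2 to 7 had no count in a given group.

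Each library was compared with its group by counting the members that lay more than 2-fold above or below both companions. In the third WT library of 2D (WT replicate 3), 28 of 38 members were above and 1 was below. Collagens without Col18a1 summed to 1122, 1294 and 7000.5 CPM in the WT libraries of 2D. The third KO library of 4W had 19 of 38 members above, and the sums there were 511, 659 and 2105 CPM. In WT replicate 1 of 36W 3 members were above and 4 below, with sums of 648, 1056 and 682 CPM, so that this library differed in its mix of collagens rather than in their sum. WT replicate 2 of 36W had 6 members above and 1 below. By this count it stood apart as much as WT replicate 1, but it was not among the 3 libraries left out together below. In the remaining 14 libraries at most 3 members stood apart in this way. WT replicate 3 of 2D, KO replicate 3 of 4W and WT replicate 1 of 36W were thus singled out by their collagen levels. Fits below that leave out any of them describe the remaining libraries only.

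Markers of vessel wall and portal tract were high in WT replicate 3 of 2D and KO replicate 3 of 4W. Smooth muscle markers summed to 26.02, 22.8 and 419 CPM in the WT libraries of 2D and to 15.6, 22.2 and 153 CPM in the KO libraries of 4W. Portal fibroblast markers summed to 152, 181 and 1657 CPM in the former and 140.2, 139.9 and 349 CPM in the latter. Bile duct markers summed to 167, 156 and 614 CPM and to 211, 183 and 182 CPM, and without Spp1, the most abundant of them, to 76.1, 71.3 and 332 CPM and to 62.5, 58.4 and 83.1 CPM. In the WT libraries of 36W smooth muscle markers summed to 29.9, 52.5 and 28.4 CPM. Myofibroblast markers summed to 49.6, 113 and 62.3 CPM there, so that WT replicate 2 was the highest for both. Counted per marker, 8 of 8 smooth muscle, 12 of 12 portal fibroblast, 11 of 13 bile duct, 7 of 10 myofibroblast and 6 of 9 mesothelial markers lay over 2-fold above both companions in WT replicate 3 of 2D. The numbers in KO replicate 3 of 4W were 6, 7, 4, 7 and 4. In WT replicate 1 of 36W 0 of 8 smooth muscle, 1 of 12 portal fibroblast and 1 of 13 bile duct markers did so. Stellate cell markers did so for 5 of 14 in the 2D library and 0 of 14 in the 4W library, and sinusoidal endothelial markers for 1 of 12 and 0 of 12. Large vessel endothelial markers did so for 4 of 8 and 3 of 8. Adipocyte markers did so for 4 of 6 and 0 of 6, among them Adipoq, the adiponectin gene, at 0, 0 and 3.38 CPM in the WT libraries of 2D. Plin1 was counted in WT replicate 3 of 2D alone, at 43 counts, and outside that library Adipoq had at most 1 count. Retn had 1, 1 and 31 counts in the WT libraries of 2D and none in any other group. Each marker of the other lists named in this paragraph was detected in every group. In bulk liver RNA, more cells of a type and more RNA per cell cannot be told apart, and the part of these markers in the collagen levels was not tested.

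**Figure D1:**
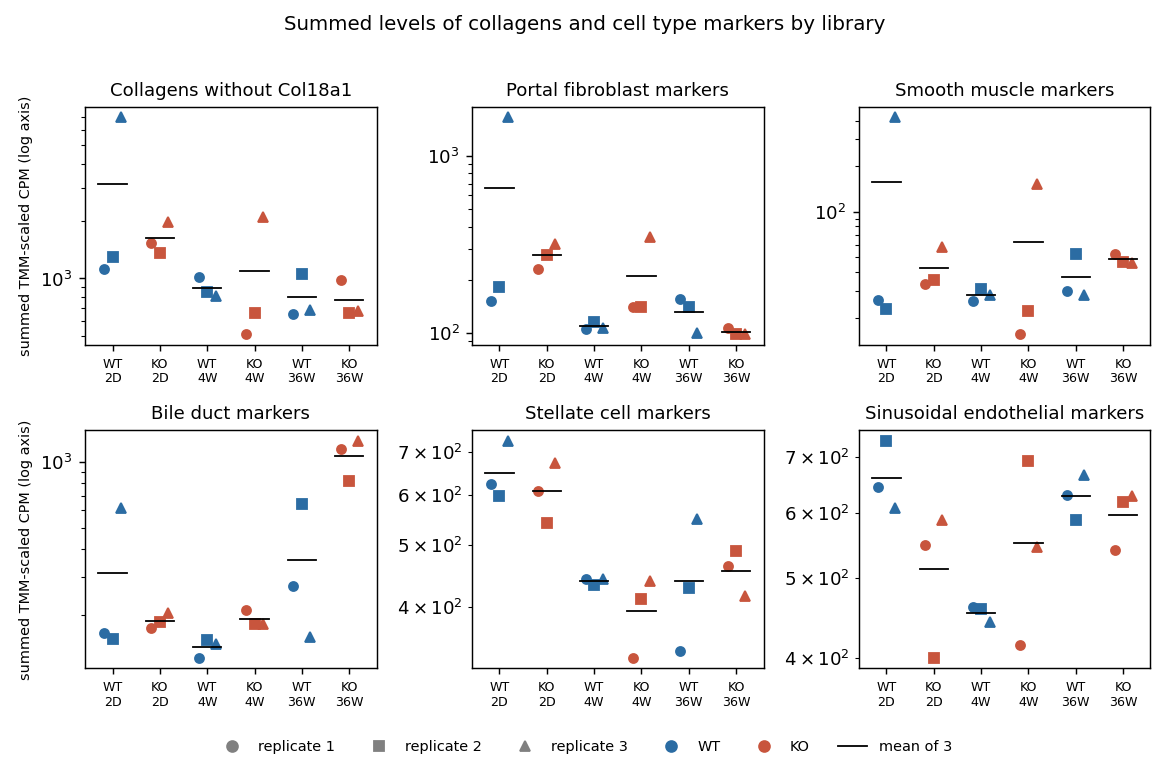
Summed TMM-scaled CPM (log axis) of the collagens without Col18a1 and of 5 marker lists in each of the 18 libraries; symbols are replicates 1, 2 and 3, colours the genotypes and black lines the mean of 3. WT replicate 3 of 2D and KO replicate 3 of 4W are high for collagens, portal fibroblast and smooth muscle markers, while the sinusoidal endothelial sum of that 2D library (609 CPM) is the lowest of its group.

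By its mean over the 18 libraries Col18a1 was the most abundant collagen, whether by CPM or per kilobase of transcript. In WT replicate 3 of 2D, Col3a1, Col1a2 and Col1a1 exceeded it on both scales. Its chain is a multiplexin of basement membranes that releases endostatin. Mean levels per kilobase over the 18 libraries were 171 for Col18a1, 67.04 for Col3a1, 30.4 for Col1a2, 26.2 for Col4a1, 24.98 for Col1a1, 17.6 for Col14a1 and 17.3 for Col4a2 CPM per kilobase. The other 31 members averaged from 8.25 for Col6a1 down to 0.0354 for Col17a1, the hemidesmosome collagen of skin. The mean of Col3a1 rests in part on WT replicate 3 of 2D, where its level was 2476 CPM against 234 and 308 CPM in its companions. Col18a1 varied far less between replicates, with 868, 917 and 971 CPM in the same libraries.

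**Figure D2:**
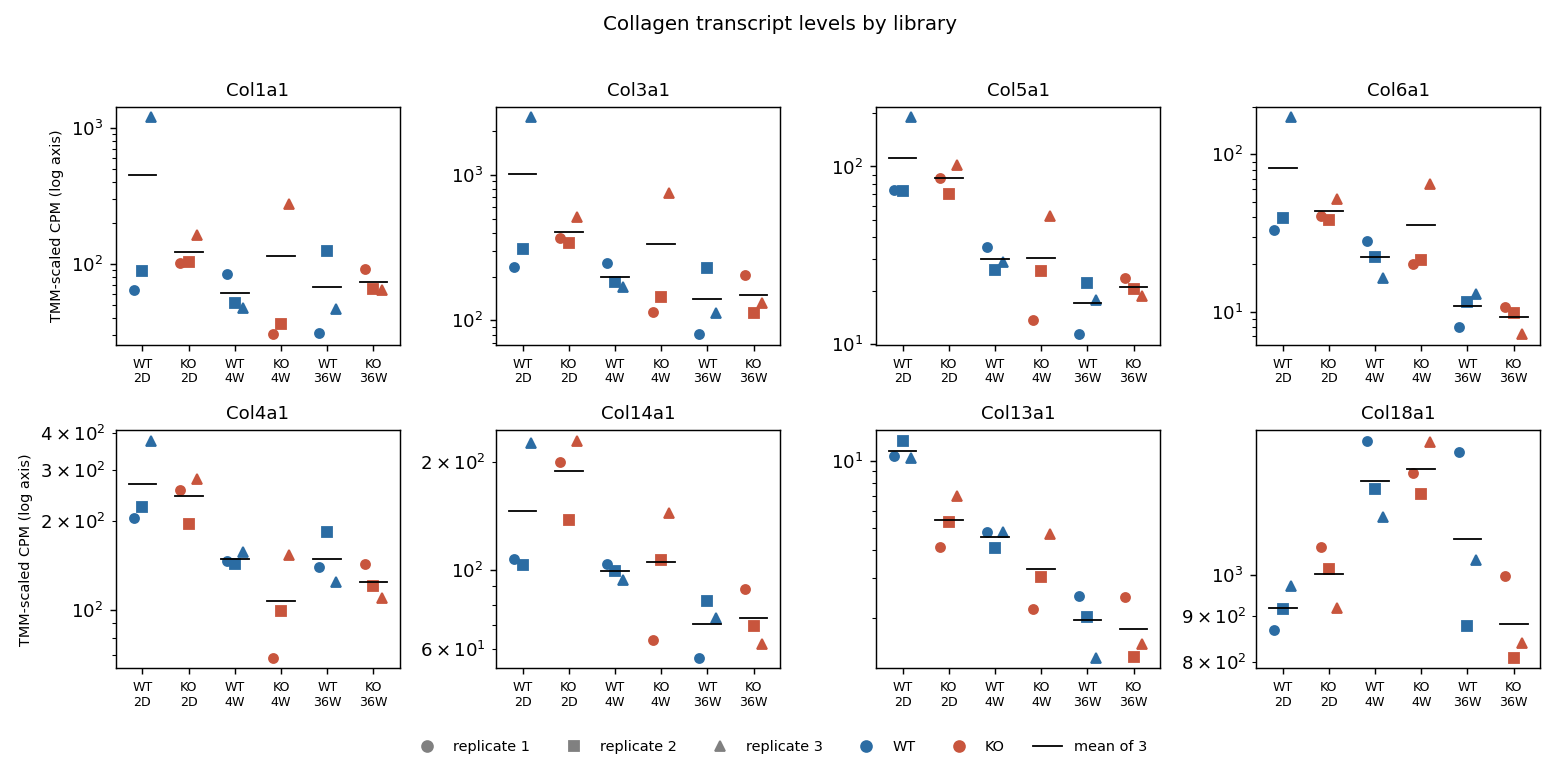
TMM-scaled CPM (log axis) of 8 collagens in each of the 18 libraries; symbols are replicates 1, 2 and 3, colours the genotypes and black lines the mean of 3. Col1a1, Col3a1, Col5a1 and Col6a1 are several-fold higher in WT replicate 3 of 2D than in its companions, while Col18a1 is not, and Col13a1 is lower in every KO library of 2D (4.14 to 6.95 CPM) than in every WT library (10.3 to 12.3 CPM).

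For Col1a1 with Col1a2 and Col4a1 with Col4a2, the ratio between partner chains varied far less than the levels of either chain. Col1a1 and Col1a2 encode the chains of type I collagen, and their levels ranged 38.7-fold and 44.2-fold between the lowest and highest library, whereas the ratio of Col1a1 to Col1a2 per kilobase stayed between 0.566 and 1.14. The ratio of Col4a1 to Col4a2, whose products form the common basement membrane network, stayed between 1.39 and 1.74 over ranges of 5.46-fold and 4.95-fold. Col6a1 over Col6a2, both subunits of type VI collagen, ran from 1.21 to 2.21. Col5a1 over Col5a2 ranged from 0.499 to 1.13 in the 36W libraries and from 0.992 to 1.85 in those of 2D and 4W. Col4a3 over Col4a4 varied most among the pairs compared, from 0.218 to 10.6, and was at or above 2.36 in all 36W libraries. Its highest value came from KO replicate 1 of 4W, where Col4a4 was at 0.0623 CPM, under the floor. These ratios are descriptions over libraries that share their sequencing.

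Among the members, 6 pairs lie next to each other in the genome, and 3 of these are the head-to-head type IV pairs. By the mm10 coordinates of the deposited table, Col4a1 (chr8:11198423-11312826, minus strand) and Col4a2 (chr8:11312805-11449287, plus strand) overlap by 22 bases at their starts. Col4a4 (chr1:82448423-82586849) and Col4a3 (chr1:82586921-82722059) start 71 bases apart, and Col4a6 and Col4a5 1308 bases apart on chromosome X. Since the strand of counting is not given in the sources used here, reads in the shared bases cannot be assigned to a gene. The annotation GENCODE M21 gave exon overlaps with another gene for 11 of 38 members, among them Col9a3 with Tcfl5 over 234 bases and Col4a3 with C430014B12Rik over 563 bases, both on the opposite strand. Values of Col9a3 and Col4a3 may therefore include reads of those genes.

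Promoter sequences are shown for the shared start of Col4a1 and Col4a2, the pair with the steadiest ratio. Col4a4 is included because its pair had the least steady ratio. Col13a1 is included because its KO and WT libraries did not overlap at 2D, where it was called only without WT replicate 3. The sequences are RefSeq windows of build GRCm38.p6, from 250 bases before to 50 after the start, 5′ to 3′ on the gene's strand. Capitals mark exact matches on either strand to the antioxidant response element core TGACNNNGC, the GC box GGGCGG, the CCAAT box CCAAT or the TATA box TATAAA. The windows are chr8:11312777-11313076, minus strand; chr8:11312555-11312854, plus strand; chr1:82586800-82587099, minus strand; and chr10:61979059-61979358, minus strand.
Col4a1: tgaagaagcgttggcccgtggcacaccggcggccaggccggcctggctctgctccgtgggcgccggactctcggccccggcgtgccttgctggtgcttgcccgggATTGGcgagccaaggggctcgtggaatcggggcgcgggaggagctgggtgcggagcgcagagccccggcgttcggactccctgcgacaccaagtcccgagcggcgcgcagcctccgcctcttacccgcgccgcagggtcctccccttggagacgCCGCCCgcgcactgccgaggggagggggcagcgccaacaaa
Col4a2: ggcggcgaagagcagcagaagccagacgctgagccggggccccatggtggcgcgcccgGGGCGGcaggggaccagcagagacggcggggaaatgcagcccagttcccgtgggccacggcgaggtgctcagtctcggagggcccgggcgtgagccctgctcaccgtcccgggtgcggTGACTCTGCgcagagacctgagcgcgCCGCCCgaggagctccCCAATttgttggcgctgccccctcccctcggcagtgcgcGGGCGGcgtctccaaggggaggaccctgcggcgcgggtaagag
Col4a4: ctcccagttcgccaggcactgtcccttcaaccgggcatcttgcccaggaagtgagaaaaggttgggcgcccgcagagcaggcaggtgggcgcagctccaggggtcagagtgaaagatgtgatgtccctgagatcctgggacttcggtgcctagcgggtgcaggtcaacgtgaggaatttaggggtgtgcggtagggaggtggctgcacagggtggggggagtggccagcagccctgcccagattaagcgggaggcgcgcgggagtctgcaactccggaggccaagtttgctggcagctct
Col13a1: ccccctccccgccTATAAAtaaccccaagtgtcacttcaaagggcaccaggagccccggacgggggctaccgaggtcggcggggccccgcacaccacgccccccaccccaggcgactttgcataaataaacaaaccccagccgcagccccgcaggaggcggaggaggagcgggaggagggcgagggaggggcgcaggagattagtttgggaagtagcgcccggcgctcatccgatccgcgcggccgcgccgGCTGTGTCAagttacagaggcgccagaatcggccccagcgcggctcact
The Col4a1 and Col4a2 windows overlap on opposite strands. The Col4a2 window held 1 match to the antioxidant response element core, 3 GC boxes and 1 CCAAT box, and the Col13a1 window 1 match to the core and 1 TATA box. In the Col4a4 window none of these letters was found.

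Promoter windows were found for 31 of 38 members, 33 windows in all. The antioxidant response element core was in 7 of 33 (21.2%), against 12.4% of the 32851 windows of all genes. GC boxes were in 66.7% against 35.7%, CCAAT boxes in 33.3% against 37.4%, TATA boxes in 12.1% against 13.6%, and the palindromic SMAD element GTCTAGAC in 0 of 33 against 0.213%. Both strands were searched motif by motif, so that overlapping matches count for each, and a match describes letters only.

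At 2D, KO was compared with WT to ask what loss of NRF2 does to collagens in the acute phase after DEN. The answer turned on WT replicate 3. With all 6 libraries 0 of the 34 members that passed the low-count filter were called at an adjusted p of 0.05 in edgeR's quasi-likelihood test, where 0.165% of all 13913 genes tested were called. Unadjusted p-values were under 0.05 for 3 members, and DESeq2 called 2, both lower in KO, and 5.15% of all genes (2.23% lower). Of the 34, 27 had a negative log2 fold change and 7 a positive one, and the median was -0.66, against -0.04 over all genes. Leaving out WT replicate 3, 29 were positive and 5 negative, with a median of 0.46 against 0.00 over all genes. In that fit 4 members were higher in KO and 1 was lower, and 13.1% of all genes were called (6.68% higher and 6.42% lower). The KO libraries then lay wholly above the WT pair for 18 of 34 members, against 25.8% of all genes, and wholly below for 1, against 22.9%. WT replicate 3 had been singled out by its high collagen levels, which favours higher values in KO once it is removed. All genes were not selected in this way, so that these counts describe the remaining libraries and support nothing further. Col4a6, Col17a1, Col23a1 and Col28a1 did not pass the filter.

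Fibrillar chains showed the split most plainly. Col1a1 at 2D measured 64.8, 89.3 and 1190.0 CPM in WT and 102, 103 and 163 CPM in KO. Col1a2 measured 103, 125 and 1295 CPM in WT and 131, 132 and 191 CPM in KO. Col3a1, the type III chain found with type I in liver scars, measured 234, 308 and 2476 CPM in WT and 368, 338 and 513 CPM in KO. For all of these the KO libraries lay between the WT pair and WT replicate 3. The log2 difference of Col1a1 between KO and WT was -1.86 (SE 1.02) with all libraries and 0.65 (SE 0.23) without WT replicate 3, with adjusted p-values of 0.415 and 0.0925 from edgeR. For Col3a1 it was -1.30 and 0.56, with adjusted p-values of 0.474 and 0.0964. Col5a1 and Col5a2 encode type V chains, which limit fibril diameter. Col5a1 measured 73.4, 72.9 and 189 CPM in WT and 85.7, 70.3 and 101 CPM in KO. Col5a2 measured 33.3, 35.4 and 136 CPM in WT and 36.4, 40.2 and 61.9 CPM in KO. Neither was called in either fit. Col5a3, the third type V chain, measured 13.1, 12.3 and 28.8 CPM in WT and 12.8, 5.83 and 9.31 CPM in KO, and the groups overlapped.

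Col27a1, a fibrillar chain best known from cartilage, measured 8.97, 9.402 and 26.9 CPM in WT and 16.1, 22.5 and 21.6 CPM in KO. Its KO libraries lay above WT replicates 1 and 2 and below WT replicate 3. It was higher in KO by 1.11 (log2, SE 0.17, adjusted p = 0.00705) without WT replicate 3, but not with all libraries (0.41, adjusted p = 0.652). The minor fibrillar chains Col11a1, Col11a2 and Col24a1 stayed at or below 3.57 CPM in every library of 2D. Col11a1 measured 0.269, 0 and 3.57 CPM in WT and 0.606, 0.611 and 1.04 CPM in KO, again highest in WT replicate 3.

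Among fibril-associated chains, Col14a1 measured 107, 103 and 227 CPM in WT and 199.6, 137 and 229 CPM in KO. This chain binds the surface of collagen fibrils, and its KO libraries lay above WT replicates 1 and 2, with 1 of the 3 above all WT libraries. In its absence Col14a1 was higher in KO by 0.82 (log2, SE 0.20, adjusted p = 0.0312), and with it the difference was 0.37 (adjusted p = 0.607). Col16a1 measured 8.75, 9.502 and 64.5 CPM in WT and 12.3, 11.8 and 16.97 CPM in KO. Col9a2 and Col9a3, chains of the cartilage collagen type IX, were highest in WT replicate 3 too. Col9a2 measured 0.404, 0.20003 and 3.61 CPM in WT and 0.303, 0.944 and 0.615 CPM in KO, and Col9a3 0.808, 0.6501 and 2.18 CPM in WT and 0.556, 0.944 and 1.09 CPM in KO. Col22a1, a chain of muscle and tendon junctions, was lowest in that library, at 8.17, 4.95 and 2.13 CPM in WT and 2.93, 8.61 and 6.62 CPM in KO.

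Beaded filament chains followed the fibrillar ones. Col6a1, Col6a2 and Col6a3 form type VI microfibrils near cell surfaces. Col6a1 measured 33.1, 39.7 and 172 CPM in WT and 40.6, 38.4 and 52.3 CPM in KO. Col6a2 measured 18.8, 24.9 and 169 CPM in WT and 27.4, 23.4 and 36.1 CPM in KO, and Col6a3 33.7, 40.4 and 150.1 CPM in WT and 44.5, 51.1 and 66.7 CPM in KO. In all of them WT replicate 3 exceeded every other library of 2D. Col6a6 measured 0.494, 0.9001 and 29.4 CPM in WT and 0.909, 2.89 and 1.94 CPM in KO, with the same order. Col6a5 was higher in KO without WT replicate 3 (adjusted p = 0.0491, edgeR), and measured 0.0897, 0.15002 and 8.98 CPM in WT and 0.404, 0.722 and 1.23 CPM in KO. Its WT pair was at or under the floor of 3 counts, so no fold is given.

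Col4a1 and Col4a2, unlike the other basement membrane chains, stayed within 2-fold between WT libraries. Col4a1 at 2D measured 206, 223 and 375 CPM in WT and 256, 196 and 279 CPM in KO. Col4a2 measured 138, 152 and 238 CPM in WT and 166, 133 and 171 CPM in KO. Both overlapped between genotypes with or without WT replicate 3 and were called in neither fit. Col4a5, whose product pairs with the Col4a3 and Col4a4 chains in kidney, measured 8.12, 14.6 and 57.8 CPM in WT and 17.4, 19.3 and 17.8 CPM in KO. Col4a3 measured 1.12, 0.3501 and 3.57 CPM in WT and 0.758, 0.4998 and 0.898 CPM in KO, and Col4a4 0.718, 1.9003 and 10.3 CPM in WT and 1.46, 2.39 and 3.45 CPM in KO. In WT replicate 3 of 2D, 4 of 6 basement membrane chains lay over 2-fold above both companions. No basement membrane chain was called at 2D in either fit.

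The multiplexins diverged from each other. Col15a1, found between basement membranes and fibrils, measured 2.602, 2.65 and 67.3 CPM in WT and 4.04, 5.61 and 4.02 CPM in KO, and Col18a1 measured 868, 917 and 971 CPM in WT and 1076, 1016 and 918 CPM in KO. WT replicate 3 was far above every other library for Col15a1 and within the range of the KO libraries for Col18a1. Col8a1, a short-chain collagen of vessel walls, measured 0.179, 0.10002 and 4.86 CPM in WT and 0.657, 0.777 and 1.18 CPM in KO. It was called higher in KO without WT replicate 3 (adjusted p = 0.0323, edgeR), with 2 of the libraries compared near the floor. Col7a1, of the anchoring fibrils of skin, measured 1.08, 0.6501 and 9.17 CPM in WT and 0.455, 0.444 and 0.662 CPM in KO, and the groups overlapped.

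Col13a1 (chr10:61838236-61979108, minus strand), a transmembrane collagen of cell adhesion sites, was lower in KO at 2D in either set of libraries. It measured 10.5, 12.3 and 10.3 CPM in WT and 4.14, 5.33 and 6.95 CPM in KO at 2D. KO and WT did not overlap, as for 9.98% of all genes in that direction, and WT replicate 3 did not stand apart. The log2 difference was -1.02 (SE 0.22) with all libraries and -1.07 (SE 0.22) without WT replicate 3. Its adjusted p was 0.111 in the former and 0.0191 in the latter, so that only the fit without that library called it. Col25a1, another transmembrane chain, measured 2.02, 1.25 and 0.741 CPM in WT and 1.52, 1.17 and 2.69 CPM in KO, and overlapped.

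**Figure D3:**
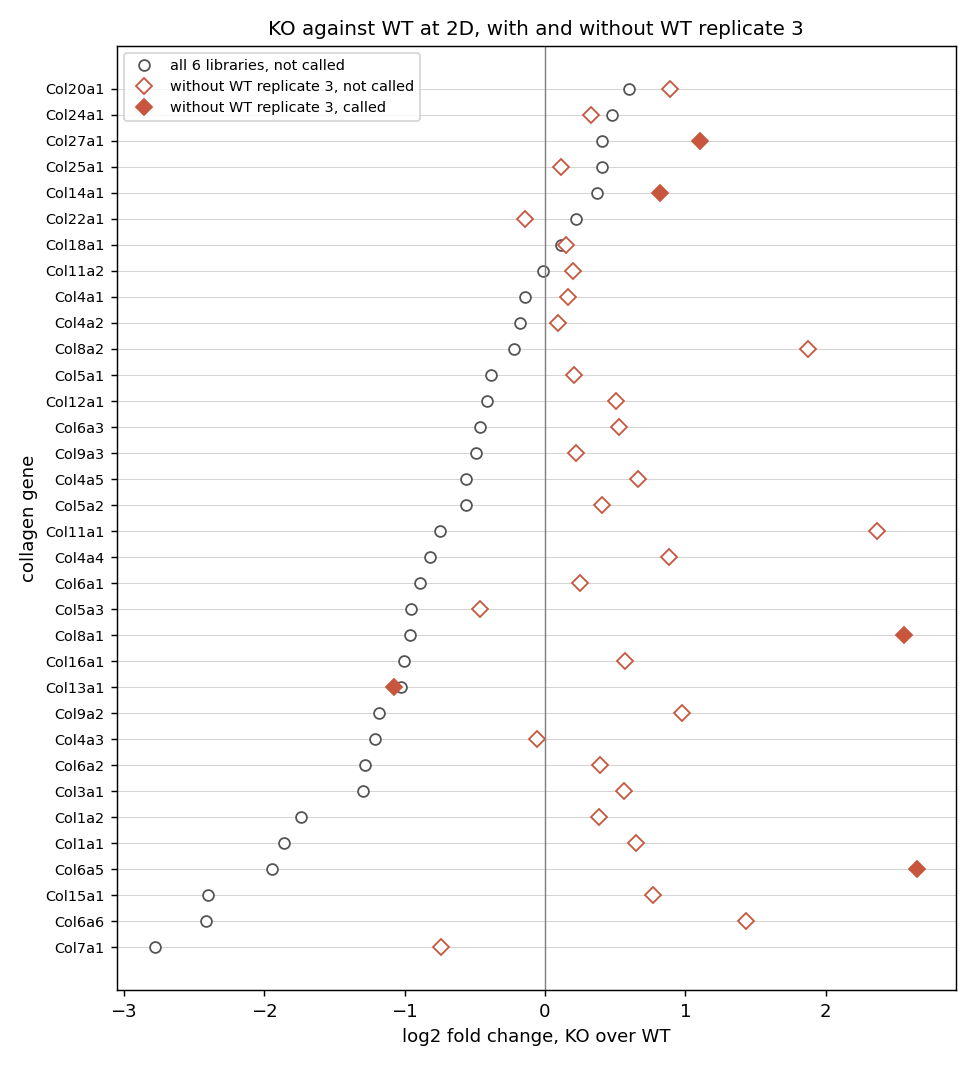
Log2 fold change of KO over WT at 2D for the 34 members tested, from the fit of all 6 libraries (circles) and without WT replicate 3 (diamonds); filled symbols are called at an adjusted p of 0.05. Most members move from the left of 0 to the right when that library is left out, and Col13a1 keeps its place (-1.02 and -1.07).

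Among genes that act on collagens, the calls at 2D also depended on WT replicate 3. In the fit of all libraries 0 members were called of the lists of chain folding and modification (22 tested), propeptide cleavage and crosslinking (11), breakdown and its inhibitors (11), collagen receptors (9), matrix partners (26) and fibrogenic signals (21). In the fit without WT replicate 3, where 6.68% of all genes were higher and 6.42% lower, 3 folding genes were higher in KO, namely Serpinh1 (0.95 log2, adjusted p = 0.0117 from edgeR), which encodes the collagen chaperone HSP47, P4ha1 (0.72), a prolyl hydroxylase subunit, and Plod3 (0.61), a lysyl hydroxylase. Of the crosslinking list Pcolce2 was higher (2.05), and of the matrix partners 4 were, led by Thbs1 (0.98), Fmod (2.20) and Fn1 (0.64). Among fibrogenic signals Smad3 (0.78) was higher and Tgfbr2 lower (-0.55). Serpinh1 measured 26.2, 26.7 and 159 CPM in WT and 44.5, 46.2 and 64.8 CPM in KO. Its KO libraries lay between the WT pair and WT replicate 3. Fn1 and Pcolce2 did not show that order, since their KO libraries lay above all WT libraries, and Tgfbr2 was lower in every KO library than in any WT library. None of the receptors or breakdown genes was called in that fit.

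At 4W, 28 members passed the filter and 1 was called between genotypes, Col5a3, lower in KO, where 6.08% of all genes tested were called and 4.13% were lower. A further member, Col6a6, had an unadjusted p under 0.05, and DESeq2 called 2 members and 9.33% of all genes. Signs were mixed, with 18 positive and 10 negative differences and a median of 0.13 against 0.01 over all genes. Without KO replicate 3 there were 5 positive and 23 negative differences, with a median of -0.53 against 0.00. That fit called 3 members lower in KO, namely Col4a1, Col4a2 and Col1a2, and 4.11% of all genes (2.86% lower). KO then lay wholly below WT for 15 of 28 members, against 18.6% of all genes. KO replicate 3 had been singled out by its high collagen levels, which favours lower values in KO once it is removed. These signs and counts thus describe the remaining libraries and support nothing further. Col28a1, Col4a6, Col6a5, Col22a1, Col9a2, Col9a3, Col11a1, Col8a2, Col17a1 and Col25a1 did not pass the filter at 4W.

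Col5a3 (chr9:20770050-20815067, minus strand) measured 48.4, 41.9 and 26.9 CPM in WT and 22.8, 17.2 and 19.6 CPM in KO at 4W. All KO libraries lay below all WT libraries, and KO replicate 3 did not stand apart. The log2 difference was -0.99 (SE 0.21, adjusted p = 0.0247) in edgeR. The call was near the threshold, since it was lost without KO replicate 3 (adjusted p = 0.0546) and without WT replicate 1, WT replicate 2 or KO replicate 2, with adjusted p-values of 0.0535 to 0.0921, while the difference ranged from -1.19 to -0.81. In the fit of all 18 libraries the adjusted p was 0.494.

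The main fibrillar chains were lower in KO replicates 1 and 2 than in WT and higher in KO replicate 3. Col1a1 at 4W measured 85.2, 51.9 and 47.3 CPM in WT and 30.7, 36.3 and 276 CPM in KO. Col1a2 measured 77.1, 59.9 and 65.7 CPM in WT and 33.2, 45.6 and 260.2 CPM in KO, and Col3a1 246, 182 and 169.6 CPM in WT and 114, 145 and 747 CPM in KO. For these chains the groups overlapped through KO replicate 3. For Col1a2 the log2 difference was 0.74 (adjusted p = 0.543) with all libraries and -0.79 (SE 0.17, adjusted p = 0.0346) without KO replicate 3, by edgeR. Col5a1 measured 35.3, 26.2 and 28.9 CPM in WT and 13.6, 25.8 and 52.5 CPM in KO, and Col5a2 15.7, 12.5 and 12.6 CPM in WT and 7.97, 11.4 and 41.7 CPM in KO. Col27a1 did not follow them, with 36.1, 23.8 and 11.8 CPM in WT and 21.99, 13.1 and 15.7 CPM in KO. KO replicate 3 stood between its companions there. Col11a1 was detected in KO replicate 3 alone among the 4W libraries, at 0.0574 CPM, under the floor.

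Col4a1 measured 146, 143 and 157 CPM in WT and 68.7, 99.4 and 153 CPM in KO, and Col4a2 93.4, 95.4 and 103 CPM in WT and 48.03, 68.6 and 96.7 CPM in KO. KO replicate 3 reached the WT level in both, while its companions lay below it. Without that library Col4a1 and Col4a2 were lower in KO, with log2 differences of -0.84 (SE 0.16, adjusted p = 0.0228) and -0.75 (SE 0.16, adjusted p = 0.0329) in edgeR. With all libraries the differences were -0.48 and -0.46, with adjusted p-values of 0.276 and 0.248. Col4a5 measured 7.602, 7.46 and 5.14 CPM in WT and 6.04, 8.29 and 19.9 CPM in KO, Col4a3 0.923, 0.716 and 0.781 CPM in WT and 0.561, 0.651 and 2.93 CPM in KO. Both were highest in KO replicate 3.

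Type VI chains were also highest in KO replicate 3. Col6a1 measured 28.3, 22.1 and 16.5 CPM in WT and 19.996, 21.3 and 65.2 CPM in KO. Col6a2 measured 22.6, 13.5 and 11.7 CPM in WT and 11.7, 13.01 and 64.4 CPM in KO, and Col6a3 27.3, 22.8 and 22.7 CPM in WT and 15.5, 16.9 and 61.4 CPM in KO. Col6a6 reached 8.15 CPM in KO replicate 3, with 0.163, 1.33 and 0.521 CPM in WT and 1.18, 0.976 and 8.15 CPM in KO. Of the fibril-associated chains, Col14a1 measured 104, 99.4 and 94.04 CPM in WT and 63.7, 107 and 144 CPM in KO, and Col16a1 6.46, 7.21 and 6.51 CPM in WT and 4.61, 5.91 and 12.6 CPM in KO. The groups overlapped for both. Col9a3 was at 0.326, 0.46001 and 0.1302 CPM in WT and 0.249, 0.325 and 0.688 CPM in KO, Col9a2 at 0.109, 0 and 0 CPM in WT and 0, 0.217 and 0 CPM in KO, and Col22a1 at 0, 0.153 and 0 CPM in WT and 0, 0 and 0.0574 CPM in KO, values near or under the floor.

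Col15a1 measured 12.3, 18.6 and 11.5 CPM in WT and 12.6, 5.15 and 21.5 CPM in KO and overlapped between genotypes. Col18a1 measured 1411, 1249 and 1159.5 CPM in WT and 1298, 1231 and 1409 CPM in KO, and KO replicate 3 did not stand apart. Col8a1 measured 2.23, 2.096 and 2.47 CPM in WT and 1.43, 1.41 and 3.61 CPM in KO. Col13a1 measured 4.83, 4.09 and 4.82 CPM in WT and 2.18, 3.04 and 4.704 CPM in KO, with KO replicate 3 inside the WT range and its companions below. Its log2 difference was -0.47 (adjusted p = 0.42, edgeR). Col7a1 measured 0.977, 0.92001 and 0.456 CPM in WT and 1.18, 1.301 and 1.43 CPM in KO, higher in every KO library but not called (adjusted p = 0.389). Col25a1 was at 0.3801, 0.102 and 0.2603 CPM in WT and 0.498, 0.271 and 0.402 CPM in KO.

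Among collagen-modifying genes at 4W, 3 of 21 folding genes tested were lower in KO, where 4.13% of all genes were lower and 1.95% higher. They were the prolyl hydroxylase subunits P4ha1 (-1.22 log2, adjusted p = 0.00192 from edgeR) and P4ha2 (-1.20) and the coat protein gene Sec24d (-1.20), whose product carries procollagen out of the endoplasmic reticulum. Of 10 breakdown genes Mmp14, a membrane-bound collagenase, was higher (1.01, adjusted p = 0.00127) and Mmp19 lower (-0.42). Of 21 fibrogenic signals the ligand gene Pdgfc was higher (1.09). P4ha1 measured 24.9, 23.2 and 27.1 CPM in WT and 9.28, 11.8 and 11.2 CPM in KO. All its KO libraries lay below all WT libraries. No gene of the crosslinking (10 tested), receptor (8) or matrix partner (26) lists was called with all libraries. In KO replicate 3, however, 12 of 26 matrix partners and 5 of 13 crosslinking genes lay over 2-fold above both companions. So did 6 of 17 breakdown, 4 of 22 fibrogenic, 3 of 22 folding and 1 of 10 receptor genes. The calls of these lists at 4W without that library are not reported here.

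At 36W, 0 of 26 members tested were called between genotypes by edgeR, where 0.037% of all genes were. Unadjusted p-values were under 0.05 for 3 members, and DESeq2 called 3, higher in KO, as were 0.685% of all genes. Signs were balanced, 14 positive and 12 negative, with a median of 0.04 against 0.01 over all genes. Without WT replicate 1 edgeR again called 0 members, with 3 at an unadjusted p under 0.05, and 0% of all genes. The other 12 members did not pass the filter at 36W.

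Col6a5 and Col4a5 were the members whose KO libraries all lay above all WT libraries, 2 of 26 against 8.23% of all genes. Col6a5 measured 0.219, 0.0494 and 0 CPM in WT and 4.61, 0.752 and 2.76 CPM in KO, not called (adjusted p = 0.207, edgeR). Its WT libraries held few or no counts. Col4a5 measured 0.439, 4.99 and 1.898 CPM in WT and 23.1, 10.1 and 7.26 CPM in KO, a log2 difference of 2.49 (SE 0.79, adjusted p = 0.323) in edgeR. WT replicate 1 was the lowest of the 6 libraries.

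WT replicate 1 of 36W stood out in both directions. Col27a1 measured 80.3, 6.97 and 9.87 CPM in WT and 7.85, 6.31 and 6.42 CPM in KO, and Col5a3 52.4, 5.68 and 7.34 CPM in WT and 15.8, 3.99 and 4.73 CPM in KO. In both WT replicate 1 was the highest library of 36W. Col4a3 measured 0.966, 27.6 and 44.9 CPM in WT and 42.5, 35.3 and 29.2 CPM in KO, and Col4a4, its head-to-head neighbour, 0.483, 6.97 and 12.4 CPM in WT and 9.85, 8.103 and 10.4 CPM in KO. There WT replicate 1 was the lowest, at the level of earlier times.

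The other main chains overlapped between genotypes at 36W. Col1a1 measured 31.2, 126 and 47.1 CPM in WT and 92.3, 65.2 and 64.6 CPM in KO, Col1a2 29.3, 115 and 53.7 CPM in WT and 94.7, 51.6 and 59.7 CPM in KO. Col3a1 measured 80.7, 229.7 and 113 CPM in WT and 207, 112 and 131 CPM in KO, Col5a1 11.4, 22.1 and 17.7 CPM in WT and 23.5, 20.5 and 18.8 CPM in KO, and Col5a2 10.3, 34.9 and 19.5 CPM in WT and 27.95, 14.4 and 16.2 CPM in KO. WT replicate 2 was the highest library for Col1a1, Col1a2, Col3a1 and Col5a2. Col4a1 measured 139.6, 183 and 125 CPM in WT and 143, 120.1 and 109.7 CPM in KO, Col4a2 80.8, 103 and 86.6 CPM in WT and 94.6, 69.8 and 71.6 CPM in KO. Col6a1 measured 8.03, 11.5 and 12.97 CPM in WT and 10.7, 9.84 and 7.21 CPM in KO, Col6a2 6.72, 9.63 and 7.02 CPM in WT and 9.78, 7.35 and 5.41 CPM in KO, and Col6a3 11.4, 31.3 and 14.6 CPM in WT and 26.99, 20.3 and 21.96 CPM in KO. None of these chains was called.

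Col14a1 at 36W measured 56.9, 81.95 and 73.3 CPM in WT and 88.4, 69.9 and 62.2 CPM in KO, Col16a1 3.38, 7.41 and 5.76 CPM in WT and 5.71, 5.15 and 5.24 CPM in KO. Col6a6 measured 8.25, 12.7 and 5.82 CPM in WT and 12.9, 6.77 and 6.36 CPM in KO. Col15a1 measured 21.6, 15.3 and 14.4 CPM in WT and 16.3, 10.9 and 16.1 CPM in KO, Col18a1 1370.2, 878 and 1039 CPM in WT and 997, 809 and 839.8 CPM in KO. Again the genotypes overlapped. Col13a1 measured 2.502, 2.03 and 1.33 CPM in WT and 2.48, 1.33 and 1.52 CPM in KO, Col25a1 0.483, 0.198 and 0 CPM in WT and 0.138, 0.0579 and 0.113 CPM in KO, and Col7a1 0.746, 0.296 and 0.633 CPM in WT and 0.551, 0.289 and 0.338 CPM in KO. Col9a3 was at 0.263, 0.0988 and 0.1898 CPM in WT and 0.275, 0.347 and 0.0563 CPM in KO, and Col9a2 and Col11a1 had no count in any 36W library, which allows up to 0.132 to 0.207 CPM. Col22a1 had no count in the WT libraries and 0.413, 0.405 and 2.03 CPM in KO. Called members of the 6 lists of collagen-related genes numbered 0 at 36W.

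**Figure D4:**
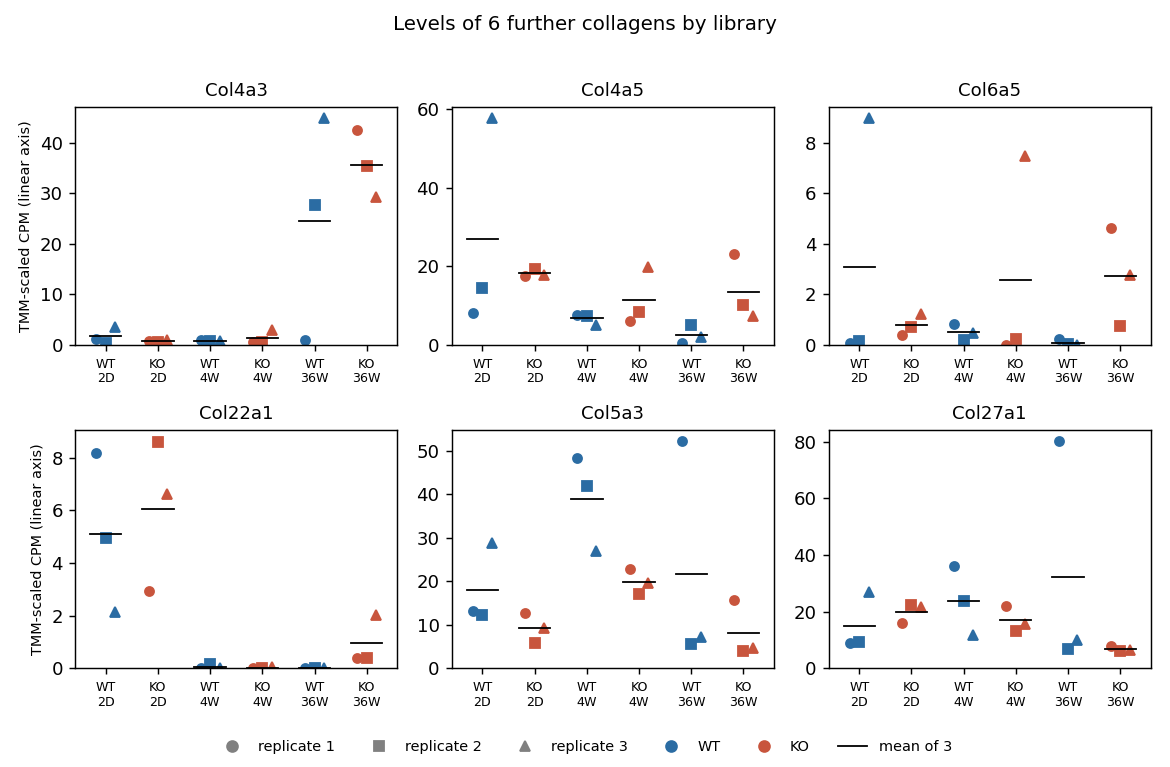
TMM-scaled CPM (linear axis) of Col4a3, Col4a5, Col6a5, Col22a1, Col5a3 and Col27a1 in each of the 18 libraries; symbols are replicates 1, 2 and 3, colours the genotypes and black lines the mean of 3. Col4a3 is at 27.6 to 44.9 CPM in 5 of 6 libraries of 36W and at 0.966 CPM in WT replicate 1, where Col27a1 (80.3 CPM) and Col5a3 (52.4 CPM) are highest.

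Whether the genotype difference itself changed over time was tested in the fit of all 18 libraries. Between 2D and 4W, 0 of 35 members were called by edgeR, against 1.34% of all genes, with 3 at an unadjusted p under 0.05 and 1 called by DESeq2 (4.68% of all genes). Between 4W and 36W it was 0 of 35, against 0.565%, with 1 at an unadjusted p under 0.05 and 0 called by DESeq2 (4.98% of all genes). Differences at 1 time and not at another are therefore not shown to differ.

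Time was compared within each genotype to describe how collagens changed from the acute phase to 4W. In WT, 20 of 35 members were lower at 4W than at 2D and 1 was higher, where 37.7% of all genes were called (18.6% lower and 19.1% higher). The median log2 change was -1.87, against -0.05 over all genes. Leaving out WT replicate 3 of 2D, 4 were lower and 3 higher, against 15.4% and 17.6% of all genes, and the median was -0.46 against -0.03. The number called also depended on the 4W libraries, at 11 without WT replicate 1, 9 without WT replicate 2 and 9 without WT replicate 3 of 4W. In KO, 5 of 35 were lower and 0 higher, where 24.2% of all genes were called (10.8% lower), and the median was -0.41 against 0.02. The number lower was 3 without KO replicate 3 of 2D or KO replicate 1 or 2 of 4W, and without KO replicate 3 of 4W 8 were lower, against 9% of all genes. The WT and KO comparisons share no library, but were fitted with 1 common spread.

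Members called lower in WT both with all libraries and without WT replicate 3 were Col5a1, Col13a1, Col22a1 and Col25a1, and Col18a1 was called higher in both. Col5a1 changed by -1.89 (log2, SE 0.42, adjusted p = 0.00249) with all libraries and by -1.30 (adjusted p = 0.0146) without. In KO it changed by -1.48 (adjusted p = 0.0164). Col13a1 changed by -1.27 in WT (adjusted p = 0.00418) and by -0.73 in KO (adjusted p = 0.0974, not called), all in edgeR. Col22a1 had 2.13 to 8.61 CPM in the 6 libraries of 2D and at most 0.153 CPM in those of 4W. It was called lower in both genotypes, with adjusted p-values of 0.000321 and 0.00033, and with so few counts at 4W no fold is given. Col25a1 changed by -2.41 in WT and -2.19 in KO. Col18a1 rose by 0.47 in WT (SE 0.15, adjusted p = 0.0252), a call lost without WT replicate 1 or 2 of either time (adjusted p from 0.0515 to 0.101), and measured 0.39 in KO (adjusted p = 0.0786). Scaled by library size alone its WT change was 0.18.

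Col4a1 and Col4a2 were both called lower in KO, with log2 changes of -1.18 and -1.14 (adjusted p = 0.00449 and 0.00241), also without KO replicate 3 of 4W (-1.55 and -1.44). In WT they changed by -0.85 and -0.85 (adjusted p = 0.0194 and 0.00883 from edgeR). Without WT replicate 3 of 2D the WT changes were -0.54 and -0.59 and were not called (adjusted p = 0.117 and 0.0526). Type I and III chains were called in WT with all libraries, Col1a1 at -2.87, Col1a2 at -2.91 and Col3a1 at -2.34. Without WT replicate 3 of 2D they measured -0.35, -0.78 and -0.46, with adjusted p-values of 0.752, 0.391 and 0.593. Likewise called only with that library were Col5a2, Col6a1, Col6a2, Col6a3, Col6a6, Col16a1, Col9a2, Col9a3, Col7a1, Col11a1 and Col4a5.

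Without WT replicate 3 of 2D, Col15a1 and Col8a1 were called higher at 4W in WT. Col15a1 rose by 2.40 (SE 0.46, adjusted p = 0.000962) in edgeR. Col8a1 had an adjusted p of 0.0038 in that edgeR fit, and with 4 and 2 counts in WT replicates 1 and 2 of 2D no fold is given. With WT replicate 3 of 2D, Col15a1 and Col8a1 measured -0.78 and 0.39 and were not called. That library was singled out by its high collagen levels, so that the calls without it describe the remaining libraries only. In KO, Col15a1 measured 1.52 and Col8a1 1.29, neither called. WT replicate 3 of 2D was above all 4W libraries for Col15a1, whereas its companions were below all of them.

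**Figure D5:**
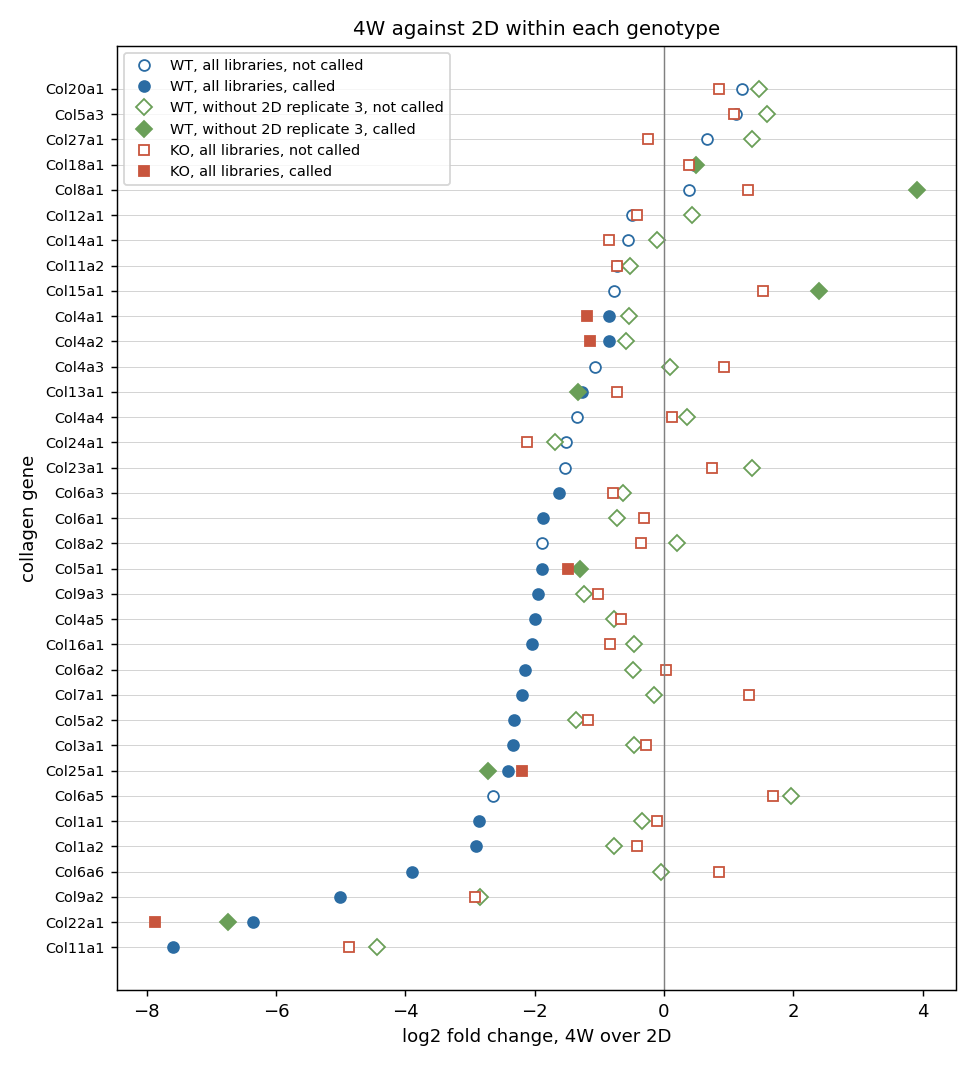
Log2 fold change of 4W over 2D for the 35 members tested, in WT with all libraries (circles), in WT without replicate 3 of 2D (diamonds) and in KO (squares); filled symbols are called at an adjusted p of 0.05. Most WT values lie far below 0 with all libraries (median -1.87) and closer to 0 without that library (-0.46), while KO has a median of -0.41.

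WT replicate 3 of 2D, KO replicate 3 of 4W and WT replicate 1 of 36W were also left out together. Between 2D and 4W that fit gave 8 lower and 5 higher members in WT (17.2% and 18.6% of all genes). In KO it gave 17 lower and 1 higher (13.5% and 12.9%). The 3 libraries left out were picked by their collagen levels, so that these counts describe the remaining libraries and support nothing further. Between 4W and 36W the same fit gave 4 higher and 6 lower in WT (14.7% and 11.3%) and 9 higher and 5 lower in KO (15.9% and 14.3%). From 2D to 4W Col1a2 and Col3a1 changed there by -1.98 and -1.69 in KO and by -0.78 and -0.46 in WT. The genotype difference in that change was called for 0 of 35 members there, against 3.34% of all genes, with 14 at an unadjusted p under 0.05.

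Partner genes were called in the same direction. In WT 21 of 26 matrix partners were lower at 4W than at 2D and 0 higher, and without WT replicate 3 of 2D it was 9 and 0. In KO it was 8 and 0. Of all genes 18.6%, 15.4% and 10.8% were lower in these fits. The list's median changes were -1.68, -1.01 and -0.78, against -0.05, -0.03 and 0.02 over all genes. Named by smallest p they were Postn (-2.33 in WT), Lama5 (-2.60) and Dcn (-1.35), which encode periostin, a laminin chain and the fibril-binding proteoglycan decorin. In KO the leading ones were Postn (-1.61), Lamc1 (-1.36) and Fn1 (-0.79). Dcn, whose level did not stand apart in WT replicate 3, measured 373, 369 and 389 CPM in WT and 285, 265 and 344 CPM in KO at 2D. At 4W Dcn measured 148, 142 and 152 CPM in WT and 150.4, 170.2 and 205 CPM in KO. All its libraries of 4W lay below all of 2D.

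Of 22 folding genes 6 were higher and 6 lower in WT, where 19.1% of all genes were higher and 18.6% lower, with Mia3 (1.28), needed for procollagen export, higher and Fkbp10 (-2.99) and Plod2 (-2.59) lower. In KO 2 were higher and 3 lower, where 13.5% of all genes were higher and 10.8% lower, with Mia3 at 1.01, Plod2 at -2.61 and Tmem38b at 0.58. Of 11 crosslinking and cleavage genes 4 were lower in WT, led by Adamts3 (-2.50), Lox (-3.03) and Loxl2 (-1.24), and 1 without WT replicate 3. In KO Adamts3 was lower, and with 4, 1 and 4 counts at 4W no fold is given. Of 14 breakdown genes and inhibitors 5 were lower and 2 higher in WT, led by Mmp14 (-1.66) and Mmp2 (-2.81), lower, and Mmp19 (0.70), higher. In KO Mmp14 (-0.71) and Mmp2 (-1.89) were lower and Mmp15 (1.32) higher. Receptors included Ddr1, a collagen-activated kinase, lower in both genotypes (-2.36 and -1.78), and Cd36, higher in both (1.70 and 1.92). Itga2, lower at 4W, was the other called receptor in WT, and Itga1 (-0.66) in KO. With 1, 3 and 0 counts of Itga2 in the WT libraries of 4W, no fold is given for it. Fibrogenic signals were lower for 7 of 21 in WT, led by Pdgfra (-2.23), Tgfb1 (-0.83) and Tgfbr2 (-0.75). In KO Pdgfra (-0.99) was lower and Pdgfc (1.42) higher. In WT replicate 3 of 2D, 11 of 22 fibrogenic and 8 of 17 breakdown genes lay over 2-fold above both companions. So did 6 of 22 folding and 3 of 10 receptor genes. The WT counts of these lists were given with that library, and those without it are not reported here.

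From 4W to 36W, the changes fell on a few chains. In WT 2 of 35 members were higher, Col4a3 and Col6a6, and 1 lower, Col13a1, where 21% of all genes were called (11.9% higher and 9.13% lower). In KO 2 were higher, Col4a3 and Col22a1, and 3 lower, Col6a1, Col13a1 and Col18a1, where 29.8% were called (14.5% higher and 15.3% lower). Both shares lay below those of all genes. Without WT replicate 1 of 36W, 1 member was higher and 5 lower in WT (12.3% and 10.2% of all genes), and without WT replicate 3 of 36W 1 was called. Since WT replicate 1 was singled out by its collagen levels, the counts without it describe the remaining libraries only. Without KO replicate 3 of 4W or KO replicate 3 of 36W, 3 were called in KO, with 23.8% of all genes in the former case. Median changes were -0.39 in WT and -0.56 in KO, against 0.01 and -0.02 over all genes, and the latter became 0.22 without KO replicate 3 of 4W.

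Col4a3 (chr1:82586921-82722059, plus strand), an adult kidney and lung basement membrane chain, was the chain called higher in both genotypes. It was at 0.350 to 3.57 CPM in the 12 libraries of 2D and 4W, and at 27.6 to 44.9 CPM in 5 of the 6 of 36W. The log2 change from 4W was 4.91 in WT (SE 1.03, adjusted p = 0.00299) and 4.68 in KO (SE 0.98, adjusted p = 0.00196) in edgeR. Without WT replicate 1 of 36W, where it stayed at 0.966 CPM, the WT change was 5.48. Its neighbour Col4a4 measured 1.95 in WT and 1.83 in KO, neither called (adjusted p = 0.226 and 0.211). Exon overlap with an opposite-strand transcript, noted above, touches this gene.

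Col6a6, a further type VI chain, changed by 3.70 in WT (adjusted p = 0.0493), with 5.82 to 12.7 CPM at 36W against 0.163 to 1.33 CPM at 4W, and the call was lost when any 1 of the 6 WT libraries was left out. In KO it measured 1.33 (adjusted p = 0.397). Col13a1 was lower again, with log2 changes of -1.22 in WT (adjusted p = 0.0116) and -0.90 in KO (adjusted p = 0.0444, edgeR), and its levels at 36W were 1.33 to 2.502 CPM. Col18a1 changed by -0.57 in KO (adjusted p = 0.0101), and in WT by -0.41 without replicate 1 of 36W (adjusted p = 0.0495) and -0.22 with it (adjusted p = 0.362). Col6a1 changed in KO by -1.94 (adjusted p = 0.0148) and by -1.15 without KO replicate 3 of 4W (adjusted p = 0.121). Without WT replicate 1 of 36W, Col5a3 (-2.59), Col27a1 (-1.51) and Col11a2 (-1.72) were also lower in WT. That library was the highest WT library of 36W for each of these chains and was singled out by its collagen levels. Their changes without it describe the remaining libraries only. Col22a1 returned to 0.405 to 2.03 CPM in KO (adjusted p = 0.00614).

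Of 21 fibrogenic signal genes, 8 were higher and 0 lower at 36W than at 4W in WT, and 7 were higher and 1 lower in KO. Of all genes 11.9% were higher and 9.13% lower in WT, and 14.5% and 15.3% in KO. The list's medians were 0.48 and 0.53, against 0.01 and -0.02 over all genes. Leading members in WT were Tgfbr2 (1.88), Smad3 (1.42) and Tgfbr1 (0.58), the receptors and a mediator of TGF-beta signalling, and in KO they included Tgfbr2 (1.60) and Tgfbr1 (0.75). Receptor genes were higher for 3 of 9 in WT, Ddr1 (2.32), Itga2 and Itgb1 (0.54). In KO 3 were higher and 1 lower, with Ddr1 (2.56) and Itga2 higher and Cd36 (-0.91) lower. Itga2 had 1, 3 and 0 counts in WT and 0, 4 and 8 in KO at 4W, so no fold is given. Nid1, which links laminin to type IV collagen, measured 44.04, 42.3 and 45.2 CPM in WT and 30.1, 49.6 and 70.05 CPM in KO at 4W. At 36W Nid1 measured 146, 434 and 465 CPM in WT and 497, 319 and 374 CPM in KO. It rose by 2.99 in WT and 2.99 in KO.

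Of the 26 matrix partners 4 were higher and 1 lower in WT, with Nid1, Lama5 and Dcn (-0.75) leading by p. In KO 2 were higher and 3 lower, again led by Nid1, Lama5 (2.56) and Dcn (-0.90). These counts lie near or below the shares of all genes (11.9% higher and 9.13% lower in WT, 14.5% and 15.3% in KO). Folding genes were called for 2 of 22 in WT, P4hb higher (0.47) and Colgalt2 lower (-2.07), and in KO for 6, of which 4 were higher, led by Ppib (0.69), P4hb (0.82) and Lepre1 (0.79). Adamts14, a procollagen N-proteinase, was the called member of the crosslinking list in WT (1.85) and KO (2.45). Of 14 breakdown genes 2 were higher in each, Mmp14 (1.29) and Mmp12 (2.89) in WT and Mmp14 (0.49) and the inhibitor gene Timp1 (3.20) in KO. Timp1 held 3, 1 and 17 counts in the KO libraries of 4W, so that its fold is uncertain. Bile duct markers, summed, were 271, 642 and 159 CPM in WT and 1144, 813 and 1242 CPM in KO at 36W, against 128, 154 and 148 and 211, 183 and 182 CPM at 4W. Most of each 36W sum, though barely so in WT replicate 3, was Spp1 alone, the osteopontin gene that other cells can express. Spp1 was at 202, 506 and 79.99 CPM in WT and 994, 677 and 1146 CPM in KO. Without Spp1 the sums were 69.4, 136 and 79.2 CPM in WT and 149, 136 and 95.9 CPM in KO at 36W, against 42.5, 54.5 and 38.4 and 62.5, 58.4 and 83.1 CPM at 4W. Single markers of this list differed. Krt19, a keratin that marks bile duct epithelium, was at or below 2.72 CPM in every 36W library. Prom1 held 251, 1173 and 434 counts in WT and 895, 1056 and 839 in KO at 36W. At 4W it held 46, 160 and 47 counts in WT and 71, 138 and 295 in KO. The remaining markers of the list are not given singly. The part of bile duct markers in these changes was not tested.

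The remaining members were low throughout. Col12a1 was between 1.58 and 13.5 CPM, and Col20a1 between 0.247 and 3.38 CPM. Neither was called in any comparison, and Col12a1 was highest in WT replicate 3 of 2D. Col4a6, Col8a2, Col23a1 and Col28a1 reached at most 2.81 CPM outside that library and 14.4, 3.19, 5.09 and 9.40 CPM in it. Col24a1 was at 1.25 to 2.61 CPM at 2D and at or below 0.759 CPM later. Col17a1 stayed at or below 0.551 CPM in every library.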

How the data were processed

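The values are raw counts, which the authors deposited gene by gene for 18 libraries, per the labels from total RNA and TruSeq kits, with gene start, end and length. The submitters' processing notes name STAR 2.5, HTSeq, DESeq2 and mm10, with no roles. Totals ranged from 15.3 to 24.2 M counts. Of 35275 rows 11853 had no count.

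Genes kept by filterByExpr were tested with edgeR 4.0.16 (R 4.3.3; quasi-likelihood F test, TMM scaling, Benjamini-Hochberg over all genes, threshold 0.05). KO against WT used the 6 libraries of a time, and time and interaction contrasts 1 fit of 18 libraries with 6 group means. Between-gene levels were divided by the deposited length. Fits were tested on simulated data. Alternatives were DESeq2 1.42.0, other scalings, filters and fits, a replicate block and each library left out. Leaving out 3 libraries together was chosen after seeing the data. Same-numbered libraries deviated together with correlations from -0.153 to 0.268.

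Members called in a comparison, and 14 major chains, are given in every library, and up to 3 called genes per related list. Members and lists were chosen with earlier results of these data known. Promoters are from RefSeq (GRCm38.p6). Floors cover counting error only. Some genes of the related lists are not reported here.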

Additional observations from a re-analysis of the deposited data

How the results depend on the processing

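The single-gene calls made with all libraries kept their direction under every alternative run. Calls made only with a library left out could have the opposite sign with all libraries, as for Col1a2 in KO against WT at 4W (-0.79 without KO replicate 3, 0.74 with it) and Col15a1 in 4W against 2D in WT (2.40 without WT replicate 3 of 2D, -0.78 with it). Of the counts of collagens called, DESeq2 gave 2 for KO against WT at 2D, 2 at 4W and 3 at 36W, where edgeR gave 0, 1 and 0, and 1 for the change of the KO effect from 2D to 4W. With all 18 libraries in the fit, KO against WT gave 0 at 4W and 1 at 36W. With only the libraries compared, 4W against 2D in KO gave 11. Samples of the same number share only that number; with the replicate block, 4W against 2D in WT gave 13, all among those called without it, against 21, and the block moved no other count by over 1.5 times. Without the 3 libraries left out together, the counts were 13 and 18 for 4W against 2D in WT and KO, and 10 and 14 for 36W against 4W. With 1 library left out in turn, KO against WT ranged from 0 to 5 at 2D, 0 to 3 at 4W and 0 to 0 at 36W. The ranges were 7 to 22 and 3 to 8 for 4W against 2D in WT and KO, 1 to 6 and 3 to 6 for 36W against 4W, and 0 to 0 for both changes of the KO effect. Where a call was lost the cause was not tested. Scaling by library size alone moved the median change of all genes from 2D to 4W by -0.29 in WT and -0.21 in KO, from 4W to 36W by -0.10 in WT, and the later change of the KO effect by 0.12; the Col18a1 increase at 4W in WT was then 0.18 (adjusted p = 0.378 in edgeR). With the all-library fit Col5a3 at 4W had an adjusted p of 0.494, within a range of 0.000171 to 0.494 over its alternatives. With 15.3 to 24.2 M counts, members under about 0.132 to 0.207 CPM cannot be told from 0.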

Other observations

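Quiescent stellate cell genes moved between 4W and 36W in both genotypes. Of 14 markers listed for these vitamin A-storing cells, 6 were lower and 2 higher at 36W in WT, and 6 were lower and 2 higher in KO, by edgeR's quasi-likelihood test over all genes. Of all genes 9.13% were lower and 11.9% higher in WT, and 15.3% and 14.5% in KO, so that the share of markers higher lay near that of all genes. Lrat, which esterifies retinol, measured 33.7, 24.9 and 24.1 CPM in WT and 17.7, 24.2 and 17.5 CPM in KO at 4W. At 36W Lrat measured 11.3, 7.01 and 13.9 CPM in WT and 5.51, 7.99 and 4.17 CPM in KO. All its libraries of 36W lay below those of 4W, with log2 changes of -1.36 in WT (adjusted p = 0.00794) and -1.75 in KO (adjusted p = 0.00122). Vipr1 fell by 1.55 and 1.46 on the log2 scale and Ecm1 by 1.24 and 1.01. Reln rose by 1.15 in WT and 1.34 in KO. The part of cell numbers in these changes was not tested.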
